A study of Homo sapiens with 9 samples.

Results

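The BCL2 family and APAF1 were examined in PC3 xenografts from mice given vehicle or an antibody-drug conjugate. The 10 genes were chosen by symbol: BCL2, BCL2L1 and MCL1 (pro-survival), BAX and BAK1 (effectors), BBC3, PMAIP1, BCL2L11 and BID (BH3-only) and APAF1 (apoptosome). All 10 of 10 were found among the 16008 genes listed in both count tables, and all 10 were tested in every comparison. Against PBS, BBC3 was higher by 2.31-fold in the P-DXd-titled and 2.16-fold in the T-DXd-titled xenografts, and APAF1 was lower by 2.71-fold and 2.42-fold. The fitted changes of the other 8 members were smaller, and in MCL1, BCL2 and PMAIP1 the groups overlapped.

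The proteins of the BCL2 family decide whether the outer mitochondrial membrane stays closed. Pro-survival members hold BAX and BAK in check, BH3-only proteins induced or activated by stress bind the pro-survival members or the effectors, and freed effectors oligomerize into pores that release cytochrome c. APAF1 then binds cytochrome c and assembles the apoptosome, the platform on which caspase 9 is activated. BBC3 (which encodes PUMA) and PMAIP1 (NOXA) are known for their induction by DNA damage and other stress.

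The xenografts were grown to test antibody-drug conjugates against prostate tumors with low HER2 and HER3, and RNA-Seq was performed on bulk tumor tissue at the end of the experiment. PC3, a human prostate cancer line that does not depend on androgen, was injected under the skin of male NSG mice, 11 weeks of age, in Matrigel. NSG mice lack T, B and NK cells but keep myeloid cells, fibroblasts and endothelium, which grow into the tumor. By the series record, mice were given PBS, or 5 mg/kg of P-DXd or T-DXd, from a volume of 90 mm3, weekly by retro-orbital injection for 5 cycles. The study's methods give another age, volume and number of cycles for the experiment with both conjugates. They give the age, volume and cycles of the record for a separate experiment with T-DXd alone. P-DXd, or patritumab deruxtecan, binds HER3, whereas T-DXd, or trastuzumab deruxtecan, binds HER2. Each antibody carries deruxtecan, which inhibits topoisomerase I. Each group had 3 libraries. Titles and treatment fields name opposite conjugates for all 6 treated libraries, so the group names P-DXd-titled and T-DXd-titled follow the titles, and all 6 treated libraries were also set against PBS together, where the conflict has no bearing. Titles carry codes that differ between libraries but do not say what the codes mean, so p-values measure the spread between these libraries.

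Total counts were 90761763 to 125538606 in PBS, 54481702 to 83721486 in the P-DXd-titled and 66954114 to 73655752 in the T-DXd-titled libraries. The members had 292 to 67252 counts per library. The epithelial markers KRT8, KRT18, EPCAM and CDH1 were all detected and summed to 1179 to 1529 CPM (read counts scaled to library size) in PBS and 2289 to 2608 CPM in treated libraries. VIM, a mesenchymal gene that PC3 cells and fibroblasts both express, was at 262 to 349 CPM in PBS and 278 to 359 CPM in treated libraries. Sums of the 8 fibroblast markers were 1042 to 2010 CPM in PBS, 1219 to 2116 in P-DXd-titled and 2060 to 2221 in T-DXd-titled libraries. Nearly all of each sum came from COL1A1, COL1A2 and COL3A1. POSTN, PDGFRA and PDGFRB were each at most 14.7 CPM in any library, and DCN and LUM at most 1.01 and 1.15 CPM. Of 8 macrophage markers 5 were listed, at sums of 3.82 to 4.03, 8.37 to 12.8 and 13.9 to 18.9 CPM in the same groups. CD68 was at or near 0. The 8 skeletal muscle markers summed to 0.878 to 38.6 CPM in PBS and 63.2 to 226 CPM in treated libraries other than P-DXd-titled replicate 2, which had 3727 CPM. PBS replicate 1 also stood apart: its chi-square per gene was 331 and 411 against PBS replicates 2 and 3, which had 39.3 between them. The tables do not separate human from mouse reads, and in bulk tissue fewer cells of a type cannot be told apart from less RNA per cell. The part of these differences in the results was not tested.

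Promoter sequences are shown for the members that were called against PBS in at least 1 comparison, since their levels carry the finding. Each sequence is from RefSeq on GRCh38.p14 and runs 5′ to 3′ from 250 bases before to 50 bases after a transcription start. Capitals mark a forkhead (FOXO) motif, GTAAACA, searched on both strands.
APAF1, chr12:98645040-98645339, plus strand: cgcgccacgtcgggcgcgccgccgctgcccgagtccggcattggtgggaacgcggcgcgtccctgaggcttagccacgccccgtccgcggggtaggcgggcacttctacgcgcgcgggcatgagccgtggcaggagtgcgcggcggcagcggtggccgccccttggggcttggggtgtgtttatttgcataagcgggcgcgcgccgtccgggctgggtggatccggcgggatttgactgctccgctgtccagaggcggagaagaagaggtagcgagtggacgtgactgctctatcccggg
BBC3, chr19:47232618-47232917, minus strand: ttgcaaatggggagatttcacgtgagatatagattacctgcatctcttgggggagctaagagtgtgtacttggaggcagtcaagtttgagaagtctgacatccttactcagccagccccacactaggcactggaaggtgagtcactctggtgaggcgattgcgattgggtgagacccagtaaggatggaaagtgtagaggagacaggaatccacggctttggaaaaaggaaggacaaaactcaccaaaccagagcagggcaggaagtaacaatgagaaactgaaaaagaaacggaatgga
BCL2L11, chr2:111120664-111120963, plus strand: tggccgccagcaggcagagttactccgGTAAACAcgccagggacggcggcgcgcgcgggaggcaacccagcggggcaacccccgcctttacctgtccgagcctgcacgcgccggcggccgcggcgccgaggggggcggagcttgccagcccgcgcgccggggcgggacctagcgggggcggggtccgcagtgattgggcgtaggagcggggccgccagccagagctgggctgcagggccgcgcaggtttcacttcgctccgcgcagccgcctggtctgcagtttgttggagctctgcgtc

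The APAF1 and BCL2L11 windows were rich in G and C, at 71.3% and 74.7% with 42 and 39 CG dinucleotides, whereas the BBC3 window had 48.0% and 5 CG dinucleotides. The median over all 35116 RefSeq promoters was 58.7% and 14 CG dinucleotides. RefSeq windows were found for 9 of 10 members. The FOXO motif, in the 1 spelling searched, was present in 1 of these 9, BCL2L11, at positions -223 to -217 from the start, and in 3.42% of all promoters. Other forkhead spellings were not searched, so a window without capitals may still hold one. BID and BCL2L1 had more than 1 window, whereas the shares over all promoters are per window. The E2F motifs (TTTCGCGC, TTTGGCGC, TTTCCCGC and TTTGCCGC) were in none of the 9 members' windows and in 3.31% of all promoters, and the composite ATF4 and CHOP motif TGATGCAA was in none and in 0.866%. Other spellings of the E2F and ATF4 motifs were not searched either, so a window without a match may still hold one. These matches are descriptions of short windows and not of factor binding.

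Levels are CPM scaled by TMM, and group values are mean ± SD with n = 3. A gene was called when its fold change reached 1.5 and its adjusted p did not exceed 0.05 by edgeR's quasi-likelihood test with Benjamini-Hochberg adjustment over all genes tested. In P-DXd-titled xenografts 3 of 10 members were called, BBC3 and BCL2L11 higher and APAF1 lower, where 25% of all genes tested were called (11.2% higher, 13.8% lower). In T-DXd-titled xenografts 2 of 10 were called, BBC3 higher and APAF1 lower, against 28.6% of all genes (13.1% higher, 15.5% lower). With all 6 treated libraries the same 2 genes were called, against 32.2% of all genes (15.2% higher, 17.1% lower). These shares of the members were near or below the background. Without PBS replicate 1 the counts were 2, 2 and 2 of 10, against 24.6%, 29% and 27.6% of all genes, and without P-DXd-titled replicate 2 the P-DXd-titled count was 2, against 16.1%. Without the fold change minimum, 4, 4 and 7 of 10 members passed, against 34%, 42.3% and 55.7% of all genes. In each of the 3 comparisons, 7 of 10 members had groups that did not overlap, against 55.2%, 61.3% and 50.5% of all genes. The median absolute log2 fold change of the members was 0.24 in each comparison, against 0.42, 0.43 and 0.42 over all genes, so most members moved less than the typical gene. The 2 comparisons of 3 against 3 share the PBS libraries.

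**Figure D1:**
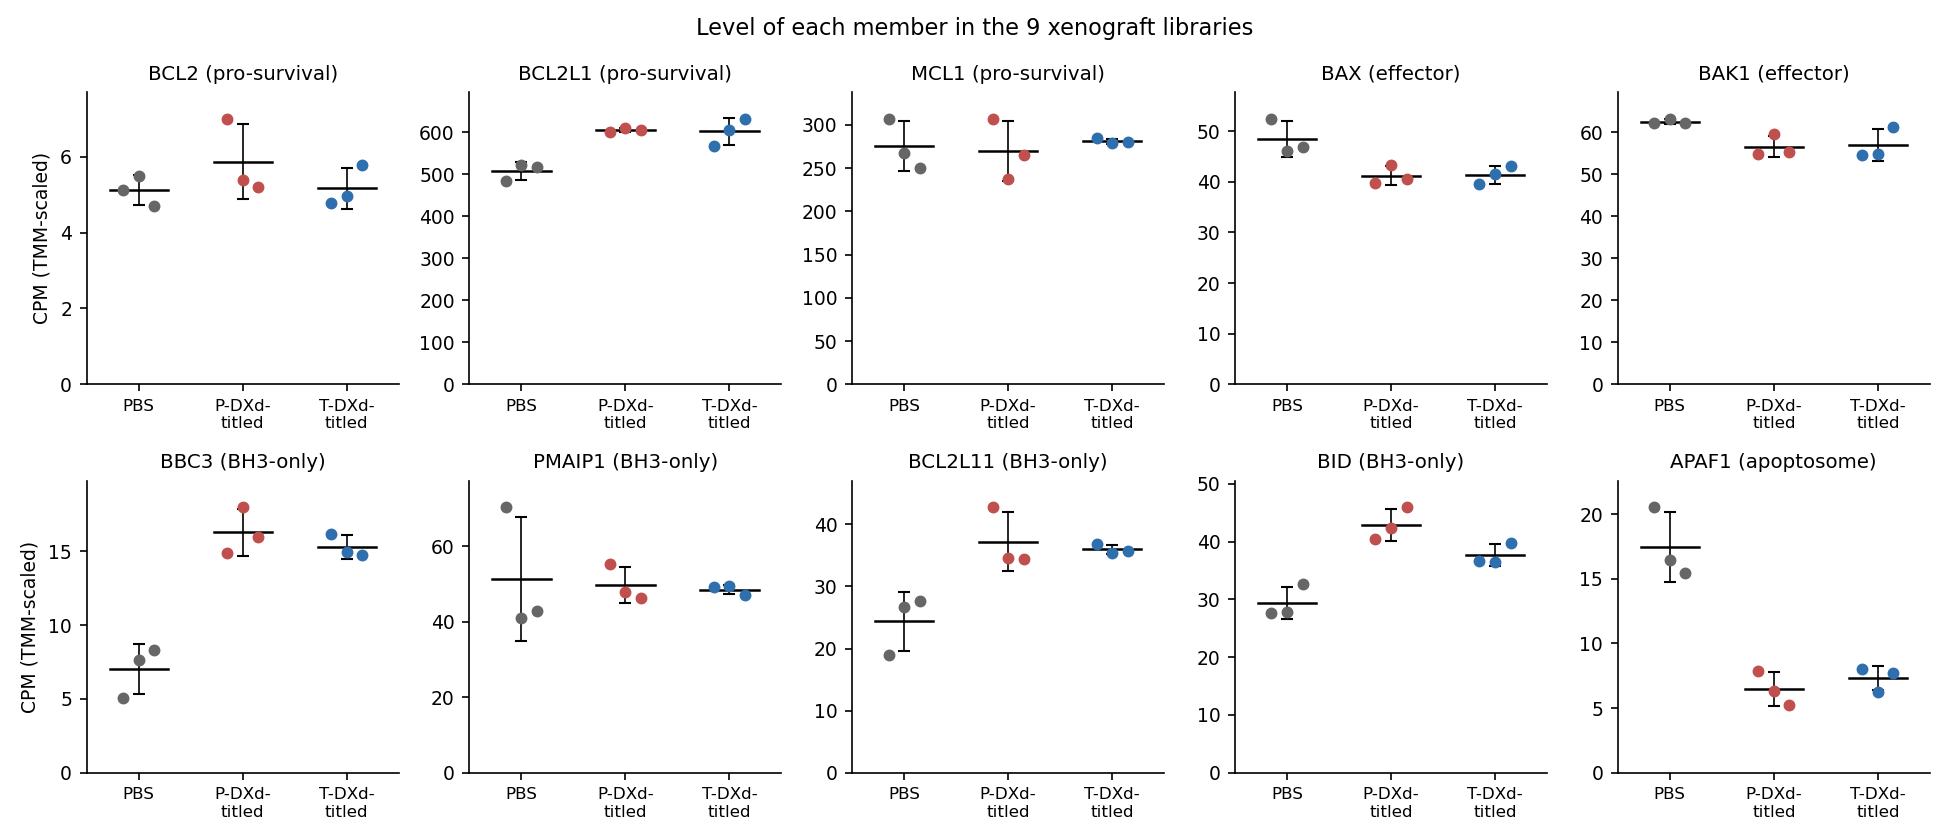
Level of each member (y axis, CPM on TMM-adjusted library sizes, from 0) in PBS, P-DXd-titled and T-DXd-titled libraries; points are libraries, lines are group means and bars are SD (n = 3). BBC3 lies at 5.08 to 8.29 CPM in PBS and 14.7 to 18.0 in treated libraries, APAF1 at 15.5 to 20.5 and 5.26 to 7.99, and MCL1 overlaps in all 3 groups.

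Among the pro-survival genes, BCL2L1 had by far the highest level of all members and was slightly higher after treatment. BCL2L1 encodes BCL-XL, which binds BAX, BAK and most BH3-only proteins. BCL2L1 was at 484, 522 and 517 CPM in PBS replicates 1 to 3, at 601, 610 and 605 in the P-DXd-titled and at 567, 605 and 632 in the T-DXd-titled replicates 1 to 3. Every treated library lay above every PBS library. The log2 fold changes were 0.25 (SE 0.09, adjusted p 0.0665 by edgeR) and 0.23 (SE 0.08, adjusted p 0.0650), neither past the threshold. Over all 6 treated libraries it was 0.23 (95% confidence interval 0.09 to 0.36, adjusted p 0.00883), below the fold change minimum.

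MCL1, a short-lived pro-survival protein that binds NOXA, BIM and BAK, had the second-highest level. MCL1 was at 307, 267 and 251 CPM in PBS, 307, 238 and 265 in the P-DXd-titled and 284, 279 and 280 in the T-DXd-titled libraries. The groups overlapped, and PBS replicate 1 and P-DXd-titled replicate 1 were equally high. Its log2 fold change with all 6 treated libraries was -0.02, with a 95% confidence interval from -0.22 to 0.19 (adjusted p 0.869). A change of 1.5-fold in either direction lay outside this interval.

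BCL2, the founding pro-survival gene, had the lowest mean CPM of the 10 in each group, although BBC3 was at 5.08 CPM in PBS replicate 1. BCL2 was at 5.13, 5.50 and 4.72 CPM in PBS, 7.01, 5.39 and 5.20 in P-DXd-titled and 4.77, 4.96 and 5.78 in T-DXd-titled libraries. The groups overlapped, and the highest value was in P-DXd-titled replicate 1. Its log2 fold change was 0.19 in P-DXd-titled xenografts (95% confidence interval -0.27 to 0.65, adjusted p 0.470 by edgeR) and 0.04 without that library, and -0.003 in T-DXd-titled xenografts (interval -0.39 to 0.38). Over the 6 treated libraries it was 0.09 (SE 0.15, adjusted p 0.626), with an interval from -0.24 to 0.41.

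Both effectors were slightly lower in treated xenografts. BAX, which moves from the cytosol to mitochondria when activated, was at 52.5, 46.1 and 46.8 CPM in PBS, 39.8, 43.3 and 40.6 in the P-DXd-titled and 39.5, 41.5 and 43.1 in the T-DXd-titled libraries. BAK1, whose protein resides in the mitochondrial membrane, was at 62.2, 63.2 and 62.1 CPM in PBS, 54.9, 59.5 and 55.3 in the P-DXd-titled and 54.5, 54.8 and 61.2 in the T-DXd-titled libraries. For both genes every treated library lay below every PBS library. With 3 against 3 the log2 fold changes of BAX were -0.24 (adjusted p 0.102 by edgeR) and -0.25 (0.0678), and those of BAK1 were -0.15 (0.200) and -0.16 (0.158). With all 6 treated libraries BAX was at -0.25 (SE 0.07, adjusted p 0.00977) and BAK1 at -0.16 (SE 0.06, adjusted p 0.0451), and both were below the fold change minimum. Leaving out 1 library moved the adjusted p of BAK1 between 0.0384 and 0.107, so its passing rested on single libraries. BAK1 has processed pseudogenes, and reads shared with them would make its counts uncertain.

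Of the 4 BH3-only members, BBC3 rose in both comparisons, BCL2L11 and BID were higher by smaller amounts, and PMAIP1 overlapped. BBC3, whose protein PUMA binds all the main pro-survival proteins, was at 5.08, 7.63 and 8.29 CPM in PBS, 14.9, 18.0 and 15.9 in the P-DXd-titled and 16.2, 14.9 and 14.7 in the T-DXd-titled libraries. The lowest treated library was well above the highest PBS library, and PBS replicate 1 was the lowest of all. The log2 fold changes were 1.21 (SE 0.21, adjusted p 0.00657) and 1.11 (SE 0.19, adjusted p 0.00526), and 1.15 with all 6 treated libraries (SE 0.15, adjusted p 0.000119). Without PBS replicate 1 BBC3 remained called in all 3 comparisons, and over every alternative its log2 fold change with all 6 treated libraries ranged from 0.98 to 1.29.

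BCL2L11 encodes BIM, a BH3-only protein that can also activate BAX and BAK directly. BCL2L11 was at 18.9, 26.6 and 27.7 CPM in PBS, 42.8, 34.5 and 34.3 in the P-DXd-titled and 36.8, 35.4 and 35.7 in the T-DXd-titled libraries. Every treated library lay above every PBS library, with P-DXd-titled replicate 1 the highest and PBS replicate 1 the lowest. The log2 fold changes were 0.60 (SE 0.17, adjusted p 0.0339) and 0.54 (SE 0.15, adjusted p 0.0244), that is 1.52-fold and 1.46-fold, on either side of the fold change minimum of 1.5. With all 6 treated libraries BCL2L11 was at 0.57 (SE 0.12, adjusted p 0.00267), 1.48-fold. The call in P-DXd-titled xenografts was lost without P-DXd-titled replicate 1 (adjusted p 0.110), replicate 2 (0.0697) or replicate 3 (0.0797) and without PBS replicate 2 (0.0659), and leaving out PBS replicate 1 lowered its log2 fold change to 0.45 (adjusted p 0.0160). Blocking on the first digit of the code in the title, whose meaning is not given, gave an adjusted p of 0.0513, and over all alternatives it ranged from 0.00757 to 0.110.

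BID links the death receptors to mitochondria once caspase 8 cleaves it. BID was at 27.7, 27.8 and 32.6 CPM in PBS, 40.5, 42.3 and 46.0 in the P-DXd-titled and 36.7, 36.5 and 39.8 in the T-DXd-titled libraries. The 3 groups did not overlap, with P-DXd-titled libraries the highest. Its log2 fold changes were 0.54 (SE 0.11, adjusted p 0.0126 by edgeR) and 0.34 (SE 0.10, adjusted p 0.0318), 1.46-fold and 1.27-fold, past the adjusted p threshold but below the fold change minimum. Without PBS replicate 3 the P-DXd-titled value was 0.61 (adjusted p 0.0168; 0.000261 to 0.0588 over all alternatives), which was called.

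PMAIP1, whose protein NOXA binds MCL1 and promotes its degradation, turned on 1 library. PMAIP1 was at 70.4, 40.9 and 42.8 CPM in PBS, 55.2, 47.8 and 46.3 in the P-DXd-titled and 49.1, 49.5 and 47.1 in the T-DXd-titled libraries. PBS replicate 1 was the highest of all 9, and PBS replicates 2 and 3 were the lowest. Its changes on the log2 scale were -0.05 and -0.10 (adjusted p 0.864 and 0.717), and -0.09 with all 6 treated libraries (95% confidence interval -0.43 to 0.26). Without PBS replicate 1 they were 0.25 (adjusted p 0.0805), 0.20 (0.0210) and 0.23 (0.0181), all below the fold change minimum. Over all alternatives the adjusted p ranged from 0.0805 to 1.00, from 0.0210 to 0.953 and from 0.0181 to 0.808.

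APAF1 had the largest change of the 10 members in each comparison with PBS. APAF1 was at 20.5, 16.4 and 15.5 CPM in PBS, 7.90, 6.30 and 5.26 in the P-DXd-titled and 7.99, 6.26 and 7.74 in the T-DXd-titled libraries. The highest treated library was far below the lowest PBS library. APAF1 fell by 1.44 on the log2 scale in P-DXd-titled xenografts (SE 0.20, adjusted p 0.00382) and by 1.27 in the T-DXd-titled xenografts (SE 0.17, adjusted p 0.00211). With all 6 treated libraries it fell by 1.36 (SE 0.15, adjusted p 4.78e-05), and the values over every alternative ranged from -1.44 to -1.21. APAF1 overlaps ANKS1B in the tables and strand use was not stated, but ANKS1B had only 8 to 37 counts per library.

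**Figure D2:**
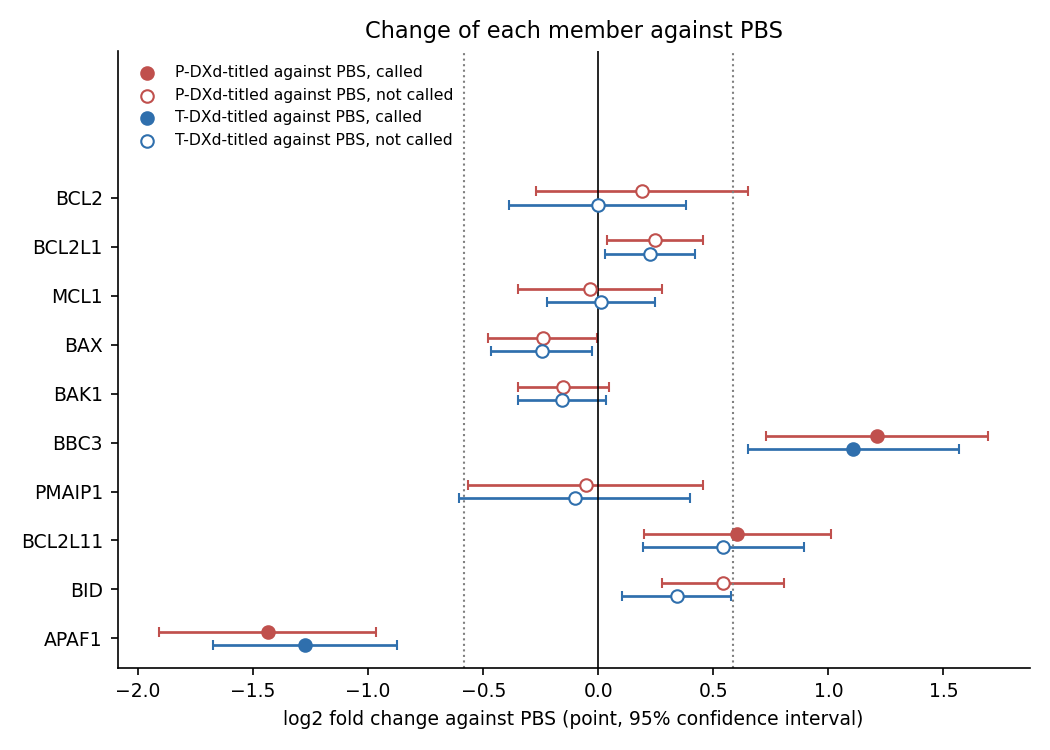
Log2 fold change of each member against PBS (x axis) in P-DXd-titled (red) and T-DXd-titled (blue) xenografts; points are edgeR estimates, bars are 95% confidence intervals, filled points are called, and dotted lines mark a fold change of 1.5 in each direction. BBC3 and APAF1 lie outside the dotted lines in both comparisons, at 1.21 and 1.11 and at -1.44 and -1.27.

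Levels were compared between genes per length, as CPM per kb of exon. In PBS the order of mean levels was BCL2L1 (121 ± 5.04), MCL1 (44.2 ± 4.67), BAK1 (28.3 ± 0.276), PMAIP1 (23.5 ± 7.55), BAX (18.7 ± 1.36), BID (6.64 ± 0.634), BCL2L11 (3.62 ± 0.711), APAF1 (2.25 ± 0.348), BBC3 (2.198 ± 0.531) and BCL2 (0.406 ± 0.0311). PMAIP1 overlapped with both BAK1 and BAX, and APAF1 with BBC3, whereas the other neighbours in this order did not overlap. In treated xenografts BBC3 was at 5.11 ± 0.495 and 4.80 ± 0.249, next to BCL2L11 at 5.52 ± 0.714 and 5.33 ± 0.108. These 2 genes overlapped in the P-DXd-titled libraries and did not overlap in the T-DXd-titled libraries. APAF1, at 0.836 ± 0.171 and 0.945 ± 0.121, then lay between BBC3 and BCL2. Exon lengths span all annotated isoforms, so the order holds for these lengths only. That of MCL1, 6222 bases, is longer than the whole gene as listed with the counts, so its level per length is likely too low.

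RNA levels of pro-survival and pro-death genes were then set side by side within each library, as ratios of summed levels per length and with no test. The ratios describe RNA of whole genes, with isoforms not separated, and not protein. They depend on the exon lengths used, that of MCL1 among them. The ratio of the 3 pro-survival genes to all 6 pro-death genes (effectors and BH3-only) was 1.81, 2.16 and 2.05 in PBS, 2.26, 2.14 and 2.27 in the P-DXd-titled and 2.23, 2.32 and 2.31 in the T-DXd-titled libraries. P-DXd-titled replicate 2 lay below PBS replicate 2, so these groups overlapped, whereas the T-DXd-titled libraries lay above PBS. The parts of this sum differed. The ratio of the 3 pro-survival genes to the 2 effectors was 3.41, 3.62 and 3.55 in PBS, 4.81, 4.21 and 4.60 in the P-DXd-titled and 4.54, 4.64 and 4.42 in the T-DXd-titled libraries. Each treated library lay above each PBS library. The ratio to the 4 BH3-only genes was 3.85, 5.35 and 4.87 in PBS, 4.25, 4.36 and 4.49 in the P-DXd-titled and 4.39, 4.63 and 4.85 in the T-DXd-titled libraries, and here the groups overlapped. The PBS libraries were the most spread, with PBS replicate 1, in which PMAIP1 was highest, at the low end.

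BCL2L1 made up most of the pro-survival sum, at 73.1% ± 2.84 in PBS, 76.7% ± 2.43 in the P-DXd-titled and 75.8% ± 1.14 in the T-DXd-titled xenografts. BCL2 made up 0.245% ± 0.0159, 0.247% ± 0.0359 and 0.217% ± 0.0148. The ratio of BCL2L1 to BAX was 6.49 ± 0.711 in PBS, 9.06 ± 0.337 in the P-DXd-titled and 8.95 ± 0.0938 in the T-DXd-titled xenografts, with no overlap between PBS and treated libraries. The ratio of BCL2L1 to MCL1 was 2.76 ± 0.381, 3.36 ± 0.451 and 3.17 ± 0.197, and the groups overlapped. The ratio of MCL1 to PMAIP1 was 1.96 ± 0.390, 1.90 ± 0.139 and 2.03 ± 0.0562, also with overlap. These shares and the ratios with MCL1 hold for the exon lengths used only. The long exon length used for MCL1 likely makes the BCL2L1 share and the ratio of BCL2L1 to MCL1 too high. That length was the same in every library.

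**Figure D3:**
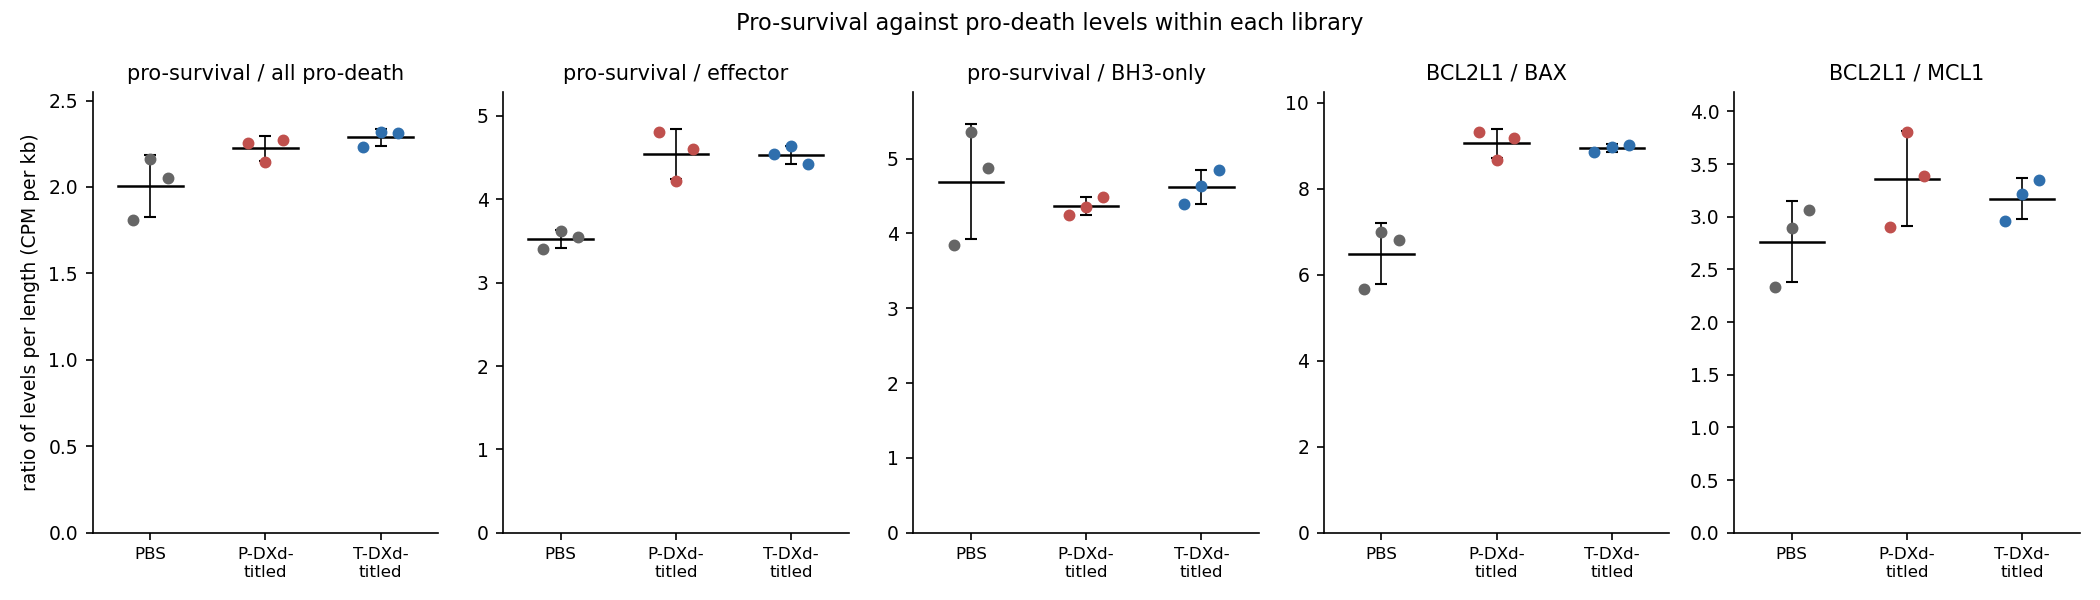
Ratios of levels per length (y axis, unitless ratio of CPM per kb, from 0) within each library; points are libraries, lines are group means and bars are SD (n = 3). The ratio of pro-survival to all pro-death genes is 1.81 to 2.16 in PBS and 2.14 to 2.32 in treated libraries, the ratio to effectors is 3.41 to 3.62 in PBS and 4.21 to 4.81 in treated libraries, and the ratio to BH3-only genes overlaps between groups.

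The conjugates were compared directly for the same 10 genes. In this comparison 0 of 10 members were called by edgeR, against 0.0273% of all genes (4 of 14653), 0 were called by DESeq2, and 1 member had an unadjusted p under 0.05. That member was BID, which was higher in P-DXd-titled libraries by 0.19 on the log2 scale (95% confidence interval 0.01 to 0.37, adjusted p 1.00 by edgeR). The remaining 9 members had overlapping groups. Over the 10 members the 95% confidence intervals of the log2 difference reached from -0.56 to 0.55, so that differences above 1.47-fold lay outside all 10 intervals and smaller ones did not. The lowest bound was for APAF1 and the highest for BCL2. BBC3 differed by 0.09 (interval -0.13 to 0.31) and BCL2L1 by 0.01 (interval -0.14 to 0.16).

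Genes that act around these members were taken from a list of 43 by role, of which 42 were listed and tested. In P-DXd-titled xenografts 10 of 42 were called, 2 higher and 8 lower. In T-DXd-titled xenografts 12 of 42 were called, 2 higher and 10 lower, and with all 6 treated libraries 11 of 42, 3 higher and 8 lower. The shares called, 23.8%, 28.6% and 26.2%, stood beside 25%, 28.6% and 32.2% of all genes. By direction, 4.76%, 4.76% and 7.14% of the list were called higher, against 11.2%, 13.1% and 15.2% of all genes, and 19.0%, 23.8% and 19.0% lower, against 13.8%, 15.5% and 17.1%; these differences were not tested. The median log2 fold changes of the list were -0.003, -0.02 and -0.03, against -0.005, -0.02 and -0.01 over all genes. Without P-DXd-titled replicate 3, 5 of 42 were called in P-DXd-titled xenografts, where the share of all genes called was 12.1%. In both comparisons of 3 against 3, which share the PBS libraries, 10 genes of the list were called in the same direction, 2 higher and 8 lower, against 23.1% of all genes (10.3% higher, 12.7% lower).

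Of the genes called in both comparisons, the 2 higher were BIRC3 and DDIT3. BIRC3, which encodes the ubiquitin ligase cIAP2, was at 66.6 ± 23.9 CPM in PBS, 168 ± 20.4 in the P-DXd-titled and 156 ± 14.6 in the T-DXd-titled xenografts (changes of 1.33 and 1.21 on the log2 scale, adjusted p 0.0104 and 0.0102). DDIT3, which encodes the stress-induced transcription factor CHOP, was at 24.2 ± 4.50, 46.4 ± 1.32 and 45.4 ± 3.51 CPM (0.93 and 0.89, adjusted p 0.00537 and 0.00452). For both genes every treated library lay above every PBS library. DDIT3 overlaps MARS in the tables, so its counts are uncertain.

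The lower genes included survival factors and cell cycle genes. BIRC5 encodes survivin, an inhibitor of apoptosis family member that is made in dividing cells. BIRC5 was at 93.7 ± 33.9 CPM in PBS, 21.2 ± 3.60 in the P-DXd-titled and 14.3 ± 1.81 in the T-DXd-titled xenografts (changes of -2.15 and -2.73 on the log2 scale, adjusted p 0.00277 and 0.000868). Beside it, the 6 proliferation markers summed to 899 to 1487 CPM in PBS and 247 to 332 CPM in treated libraries, and their part in the change of BIRC5 was not tested. E2F1, a transcription factor of S phase entry that can also drive APAF1, fell from 34.0 ± 6.80 CPM to 14.7 ± 2.07 and 15.2 ± 0.621 (-1.22 and -1.18, adjusted p 0.00477 and 0.00224). MYC was at 251 ± 101, 125 ± 19.1 and 120 ± 12.5 CPM (-1.01 and -1.08, adjusted p 0.0285 and 0.0180), with PBS replicate 1 the highest at 367 CPM. BCL2A1, a pro-survival BCL2 relative, was low throughout, at 1.07 ± 0.482, 0.274 ± 0.0360 and 0.253 ± 0.0602 CPM (-1.98 and -2.09, adjusted p 0.0148 and 0.0101).

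CYCS, which encodes the cytochrome c that APAF1 binds, was at 525, 377 and 361 CPM in PBS, 252, 237 and 212 in the P-DXd-titled and 207, 212 and 213 in the T-DXd-titled libraries. The groups did not overlap, and CYCS was called in both comparisons (log2 fold changes -0.86 and -1.02, adjusted p 0.0100 and 0.00342). CASP9, the initiator caspase of the apoptosome, was at 13.7 ± 1.23, 16.4 ± 1.39 and 18.6 ± 0.844 CPM (0.26 and 0.42, adjusted p 0.171 and 0.0247) and was not called. The remaining 3 genes called lower in both comparisons, named to complete the count, were TP63, VDAC1, which encodes an outer membrane channel, and DFFB, the caspase-activated DNase. Their log2 fold changes lay between -0.83 and -0.63 in the P-DXd-titled and between -0.83 and -0.80 in the T-DXd-titled xenografts.

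The other BH3-only genes of the list were BAD, BIK, BMF and HRK, and 0 of 4 were called in a comparison of 3 against 3 by edgeR, with an unadjusted p under 0.05 for 1 and 2 of them. All 4 had positive log2 fold changes in each of the 3 comparisons with PBS. Their medians were 0.58, 0.64 and 0.60, against -0.005, -0.02 and -0.01 over all genes, and this shared direction was not tested. With all 6 treated libraries HRK alone of the 4 was called (log2 fold change 1.23, SE 0.36, adjusted p 0.0146), at 0.245 to 0.612 CPM in PBS and 0.658 to 1.29 CPM in treated libraries. BMF was at 1.49, 8.51 and 6.98 CPM in PBS, with PBS replicate 1 far below the rest, and at 8.65 to 11.7 CPM in treated libraries (0.84 and 0.81, adjusted p 0.257 and 0.262). Of the 4 genes of the caspase 8 arm and the 4 of MCL1 turnover, 0 were called by edgeR in any comparison, and at most 1 gene of each had an unadjusted p under 0.05, against 46.9%, 52.1% and 61.1% of all genes in the 3 comparisons with PBS. Lists of 4 genes are too short to set such counts apart from the background.

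**Figure D4:**
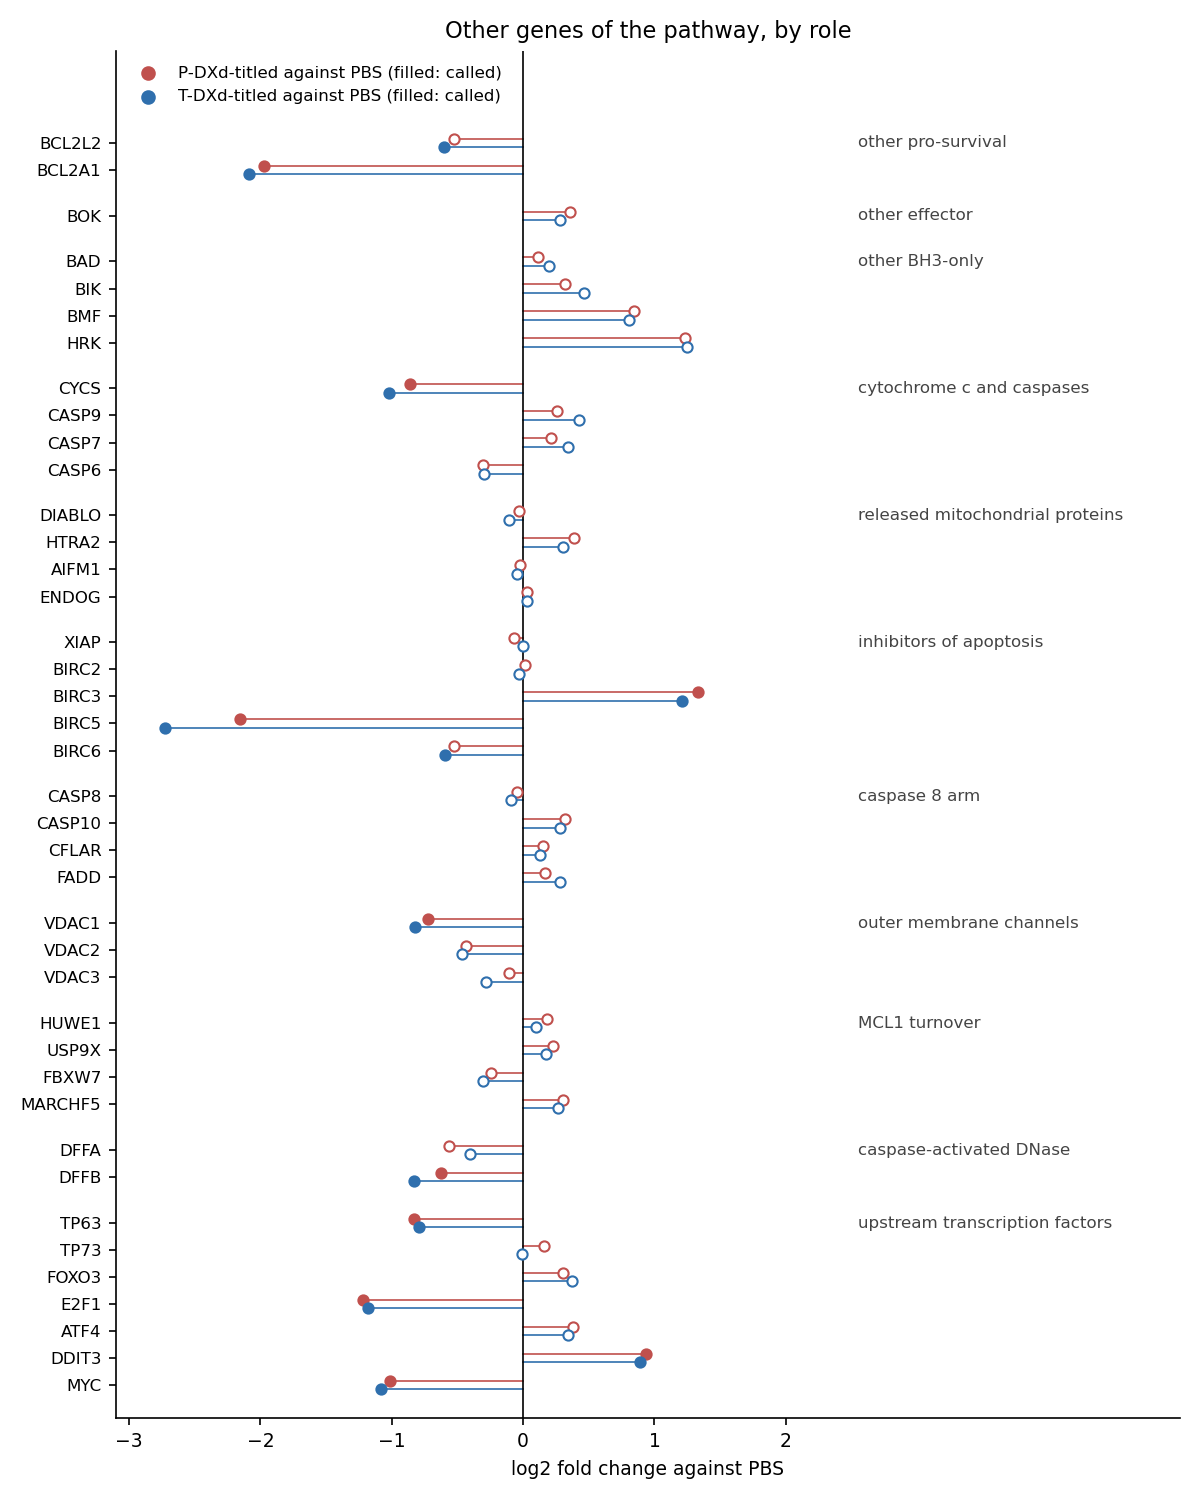
Log2 fold change against PBS (x axis) of 40 of the 42 other genes of the pathway, grouped by role, in P-DXd-titled (red) and T-DXd-titled (blue) xenografts; filled points are called. BIRC3 and DDIT3 are the genes called higher in both comparisons, and BIRC5, at -2.15 and -2.73, is the lowest.

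The genes whose log2 CPM followed BBC3 or APAF1 most closely across the 9 libraries were listed as a description, among the 12471 genes that averaged 100 counts or more. For BBC3 these were FOXO4 (Pearson r 0.998), ADPRHL1 (0.996) and NFE2L1 (0.996). For APAF1 they were TTL (0.995), SCML1 (0.992) and HIC2 (0.991). The 9 points fall into PBS and treated libraries, and 2004 genes reached an r of at least 0.9 with BBC3 and 1576 with APAF1, so a high r was common.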

How the data were processed

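RNA-Seq was performed on 9 xenografts, 3 per group. Reads were trimmed (Cutadapt), aligned (STAR) and assigned to genes (featureCounts) by the authors, who deposited raw counts in 2 tables. Removal of mouse reads and use of strand were not stated. The PBS counts of the 16008 genes in both tables were identical, and 0 columns of values were left unused. The tables name no genome build for their coordinates, which equal those of GENCODE v44 for 44 of 15685 genes compared and for 0 of the 10 members. The study's methods name GRCh38. However, the listed coordinates of APAF1, BBC3 and BCL2L11 did not cover their GRCh38.p14 windows, so the tables appear to follow another build. Coordinates are therefore given from RefSeq alone.

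Counts were tested with edgeR 4.0.16 in R 4.3.3 (TMM, filterByExpr, two-sided quasi-likelihood F test, Benjamini-Hochberg adjustment over all genes tested), and DESeq2 1.42.0 was an alternative. Thresholds were those of the study's methods. The SE of each edgeR log2 fold change was taken as its size divided by the square root of the F statistic. The 95% confidence intervals used this SE and the t distribution, so they are approximate. The 3 vs 3 comparisons were fitted on the libraries compared, and the 6 vs 3 comparison on all 9. Levels per length used the union of exons in GENCODE v44. The annotation behind the counts may differ from it, which would affect the levels per length of every member. Likeness used log2 CPM with a prior count of 2. No pair of replicates was a duplicate within sampling noise (chi-square per gene 18.4 to 411).

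The 10 members and all lists were chosen with earlier results of these data known. Genes of the pathway list were named by rule: those called in the same direction in both comparisons with PBS, up to 4 with the largest rise and 4 with the largest fall, and BIRC5, CASP9 and CYCS, with 2 further genes of the rule not reported here. MARCHF5 was matched by its identifier, and BCL2L10 was not analysed here. For 4 endothelial markers, sums were 4.02 to 6.43 CPM in PBS and 4.94 to 9.23 CPM in treated libraries. Alternatives were DESeq2, RLE size factors, no filter, a minimum of 10 counts per library, dropping the fold change minimum, 1 fit of all 9 libraries, blocking on the first digit of the code in the title, leaving out each library and, added after seeing the data, total counts in place of TMM.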

Additional observations from a re-analysis of the deposited data

Results flagged for a closer look

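For each of the 10 members the 6 treated libraries were tested for a library far from the others (Dixon's test, which chance passes in about 1 of 20 such tests), and 2 members had one. PMAIP1 was at 55.2 CPM in P-DXd-titled replicate 1, against 46.3 to 49.5 CPM in the other treated libraries. BCL2L11 was at 42.8 CPM in the same library, against 34.3 to 36.8 CPM in the others. Without this library the log2 fold change of BCL2L11 in P-DXd-titled xenografts was 0.49, in place of 0.60.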

How the results depend on the processing

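The calls of BBC3 and APAF1 held in each comparison with PBS under every alternative. Of 590 alternative values for the 10 members in 4 comparisons, 535 kept both direction and call, 7 lost a call (all BCL2L11 in P-DXd-titled xenografts), 15 gained one and 33 changed sign. Without the fold change minimum, members called were 4 for T-DXd-titled and 7 for all 6 treated libraries, and pathway genes called were 17, 21 and 23. Leaving out 1 library gave 5 to 13 pathway genes in P-DXd-titled xenografts, lowest without P-DXd-titled replicate 3, while the share of all genes called ranged from 12.1% (without the same library) to 25.8%. All values that changed sign were at most 0.25 in size, and none was called. For BCL2 in T-DXd-titled xenografts they were 0.0021 with DESeq2, 0.0030 with RLE, 0.00034 without the filter and 2.4e-05 with the block on the first digit of the title code, and -0.090 to 0.056 leaving out 1 library. MCL1 with all 6 treated libraries was 0.0026 without the filter. Leaving out 1 library, MCL1 ranged from -0.14 to 0.055 in P-DXd-titled, -0.055 to 0.11 in T-DXd-titled and -0.085 to 0.084 in all treated xenografts, and PMAIP1 from -0.21 to 0.25, -0.25 to 0.20 and -0.23 to 0.23. Between the conjugates, BAX was 0.0075 and BAK1 0.0020 with the block, and BCL2L1 was -0.0017 with total counts. Leaving out 1 library there gave -0.030 to 0.048 for BCL2L1, -0.16 to 0.026 for MCL1, -0.043 to 0.026 for BAX, -0.045 to 0.051 for BAK1, -0.043 to 0.084 for PMAIP1 and -0.061 to 0.103 for BCL2L11. The cause of these changes was not tested. No paired analysis was possible because the replicate numbers do not pair libraries across groups. No scaling moved the median log2 fold change of all genes by 0.1. Each scaling sets the libraries to a common size, so this median cannot show a shift shared by most genes. With 3 libraries per group, the intervals given beside each gene limit what could be seen.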
